A study of Homo sapiens with 6 samples.

Results

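The miR-148 and miR-152 family comprises 3 mature miRNAs, hsa-miR-148a-3p, hsa-miR-148b-3p and hsa-miR-152-3p (without the species prefix from here on), which were taken by name from the 2588 mature entries of the series. All 3 had reads, and miR-148a-3p alone had enough of them to enter the test across miRNAs. The libraries were made from exosomal RNA of HCT116, an established human colorectal carcinoma line. The siCTL group (3 libraries) received a control siRNA and the siPRDX3 group (3 libraries) an siRNA against PRDX3, which encodes a mitochondrial peroxiredoxin. Both groups were transfected by microporation for 40 h and then kept for 24 h in medium with nanoparticle-free serum, from which exosomes were isolated with a kit. The comparison addressed which exosomal miRNAs differ between the 2 transfections. The labels do not state whether the libraries come from independent cultures, so every p-value refers to the spread between libraries, which may be technical. Where 3 values are given for a group, they follow the order of libraries 1, 2 and 3.

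A miRNA guides Argonaute proteins to messenger RNAs through its seed, the bases near its 5′ end that pair with the target. Family members with one seed can bind the same sites, whichever gene they come from. This family is known for repressing DNMT1, the maintenance DNA methyltransferase. miR-148a-3p is abundant in liver and other epithelial tissues, and reduced levels of the family have been described in gastrointestinal tumours.

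The mature sequences show why the members are read as one family. They are given 5′ to 3′ from RefSeq (GRCh38.p14), with the seed, bases 2 to 8, in capitals.
miR-148a-3p: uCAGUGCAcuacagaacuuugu
miR-148b-3p: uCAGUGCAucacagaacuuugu
miR-152-3p: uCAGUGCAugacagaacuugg
Counted from 1 at the 5′ end, miR-148b-3p differs from miR-148a-3p by C9U and U10C. From miR-148a-3p to miR-152-3p the changes are C9U, U10G and U20G over the 21 bases they share. All differences lie outside the seed. A mature sequence was found for 2281 of the 2588 entries, and among these the 3 members were the sole entries with this seed at bases 2 to 8.

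The members come from 3 separate hairpins, shown here with the mature 3p arm in capitals, because the reads came almost entirely from that arm.
MIR148A: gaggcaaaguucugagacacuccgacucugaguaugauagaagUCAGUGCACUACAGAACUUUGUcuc
MIR148B: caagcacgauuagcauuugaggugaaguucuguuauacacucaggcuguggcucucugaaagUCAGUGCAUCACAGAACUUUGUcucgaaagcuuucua
MIR152: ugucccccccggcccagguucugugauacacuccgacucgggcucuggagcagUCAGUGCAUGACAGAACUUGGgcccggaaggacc
MIR148A lies at chr7:25949919-25949986 on the minus strand and overlaps no other gene in GENCODE v29. MIR148B lies at chr12:54337216-54337314 on the plus strand, within introns of COPZ1 and of AC078778.2, an overlapping non-coding gene. MIR152 lies at chr17:48037161-48037247 on the minus strand, within an intron of COPZ2. COPZ1 and COPZ2 encode zeta subunits of the COPI vesicle coat.

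The site in DNMT1 is shown as the best known target of the family. The 7 bases that pair with the seed read TGCACTG in DNA letters. On the transcript strand, they occurred once in the 321 bases of the 3′ UTR of DNMT1 (the principal transcript in GENCODE v29 on GRCh38, with the site at chr19:10133613-10133619, minus strand).
DNMT1 site: gaatccccaacaTGCACTGatg
The capitals mark the match. Of 1782 3′ UTRs between 0.8 and 1.25 times as long, one per gene, 3.2% held the same 7 letters. The principal 3′ UTRs of DNMT3A and DNMT3B, the de novo methyltransferases, held 0 matches, where 42.8% and 13% of UTRs of like length held one. Coding regions were not searched, so these counts cover sites in 3′ UTRs alone. A match is a description of letters, and the mRNAs were not measured here.

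The libraries were shallow and uneven. They held 40144 to 230945 reads assigned to miRNAs, recovered from the deposited values, spread over 137 to 356 entries. To be tested, a miRNA had to reach 113 CPM, the worth of 10 reads at the median library size, in 3 or more libraries and to have 15 reads or more in total. Levels are the authors' deposited log2 values, read as log2(x + 1), where x is proportional to the reads within a library but was scaled between libraries in a way that is not stated. siCTL 1 and siCTL 2 stood apart from the rest, lacking any read for 30 and 23 of the 80 tested miRNAs, against 0 to 8 for the other 4 libraries. PRDX3 mRNA is not measured by this assay, so neither the knockdown nor the labels could be checked. Among 8 miRNAs of colon epithelium, which would mark the labelled cell type, 7 had reads, but they took as little as 0.00494% of reads in siCTL and 0.0114% in siPRDX3, with maxima of 1.16% and 0.304%. miR-200c-3p, the best covered of them and a repressor of ZEB1 and ZEB2, was read 0, 0 and 450 times in the control libraries and 253, 1 and 190 times in the siPRDX3 libraries. The next by reads, miR-215-5p, had 0, 0 and 580 reads in siCTL against 2, 0 and 0 in siPRDX3. miR-200a-3p had 0, 0 and 192 reads against 221, 0 and 0. The colon markers thus did not share a single pattern over the libraries.

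miR-148a-3p carried the family and was present in every library. The control libraries held 699, 323 and 1471 reads of hsa-miR-148a-3p and the siPRDX3 libraries 2985, 908 and 432. As shares of all miRNA reads these were 1.74%, 0.399% and 1.18% in siCTL and 1.29%, 0.939% and 0.611% in siPRDX3. The exact 95% Clopper-Pearson intervals were narrow, from 0.357 to 0.445 for siCTL 2, the lowest, and from 1.62 to 1.87 for siCTL 1, the highest. On all reads both extremes were siCTL libraries, and the siPRDX3 libraries all lay between them. The highest of these shares was 4.36 times the lowest within siCTL and 2.12 times within siPRDX3. This order depended on miR-4451, the entry with most reads, which took 62240 of the 80953 reads of siCTL 2. Without its reads, miR-148a-3p held 3.44%, 1.73% and 1.41% in siCTL and 1.47%, 1.80% and 1.02% in siPRDX3. The lowest library was then siPRDX3 3. Ranked by reads, miR-148a-3p stood between position 12 and position 20 in each library. Intervals and detection limits here cover counting error only, because amplified reads with no molecular identifier need not come from separate molecules.

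miR-148a-3p was among the less variable entries. A read in all 6 libraries was found for 42 of the 80 tested miRNAs. The rest lacked reads in some library, which widens their spread on a log scale. The spread of miR-148a-3p was not compared with that of the 42 alone. The standard deviation of the deposited log2 level over the 6 libraries was 0.886 for miR-148a-3p, against a median of 3.71 over the tested miRNAs, the fifth smallest of 80. With shares of library totals in place of the deposited scaling it was 0.777 against 3.79, the fourth smallest.

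**Figure D1:**
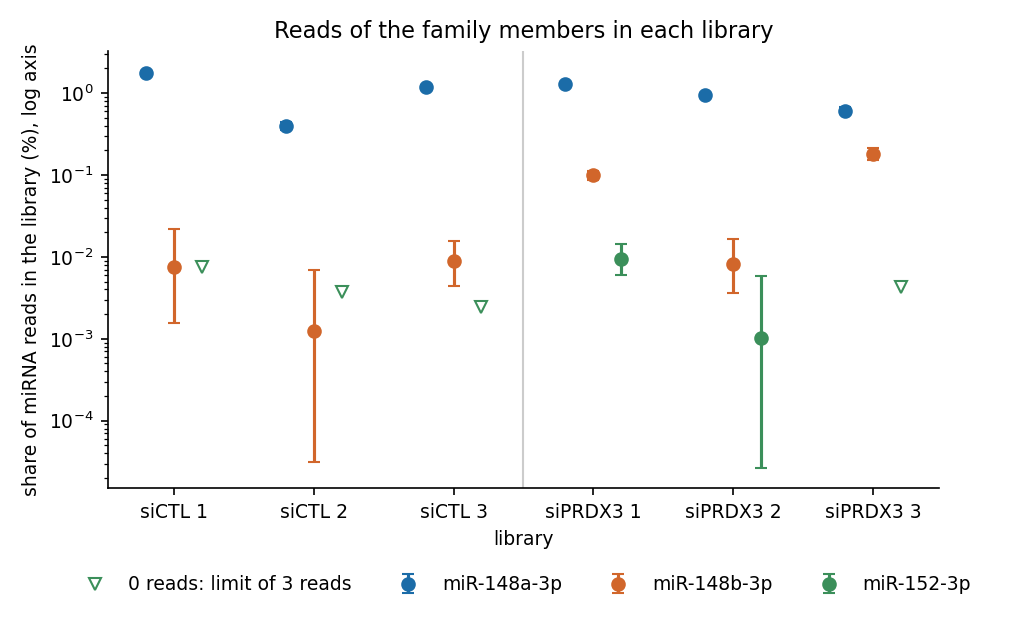
Share of miRNA reads (percent, log axis) of miR-148a-3p, miR-148b-3p and miR-152-3p in each of the 6 libraries. Points are single libraries with exact 95% intervals, and open triangles mark the limit of 3 reads where there was none. miR-148a-3p runs from 0.399% to 1.74% with overlapping groups, while miR-148b-3p stands higher in siPRDX3 1 and siPRDX3 3 than in the other 4 libraries.

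The siPRDX3 and siCTL groups did not differ detectably in miR-148a-3p. The deposited log2 levels were 14.10, 12.65 and 13.52 under the control siRNA and 13.12, 12.65 and 11.50 under siPRDX3, so the groups overlapped. Among the 80 tested miRNAs the groups did not overlap for 13, or 16.2%. The group means were 13.42 ± 0.72 and 12.42 ± 0.83 (SD, n = 3 each). The log2 fold change was −0.999 with SE 0.99 and a 95% interval from −3.34 to 1.34 (limma, unadjusted p = 0.347, adjusted p = 0.59 over the 80 tested miRNAs, two-sided). By this test 0 of 80 miRNAs passed an adjusted p of 0.05 (0%), and 6 (7.5%) had an unadjusted p under 0.05.

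The size of this difference depended on how libraries were scaled. On library totals the fold change of miR-148a-3p was −0.05 with SE 1.04 (limma, adjusted p = 0.972). limma-voom on recovered reads, which changes both the scaling and the method, gave 0.12 with SE 1.04 (adjusted p = 0.922). The shares themselves averaged 1.11% ± 0.67 of a control library and 0.948% ± 0.341 of an siPRDX3 library (SD, n = 3 each; two-sided exact permutation p = 0.8, where the smallest p possible is 0.1, as the one measure tested in this way). The median fold change of all tested miRNAs was 1.72 on the deposited scale and 2.57 on library totals. Relative to that median miR-148a-3p stood at −2.72 and −2.62. That gap was not kept without siCTL 1 and siCTL 2, the libraries with many tested miRNAs at 0: there the median was −1.15, miR-148a-3p had a fold change of −1.09, and the gap was 0.05.

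**Figure D2:**
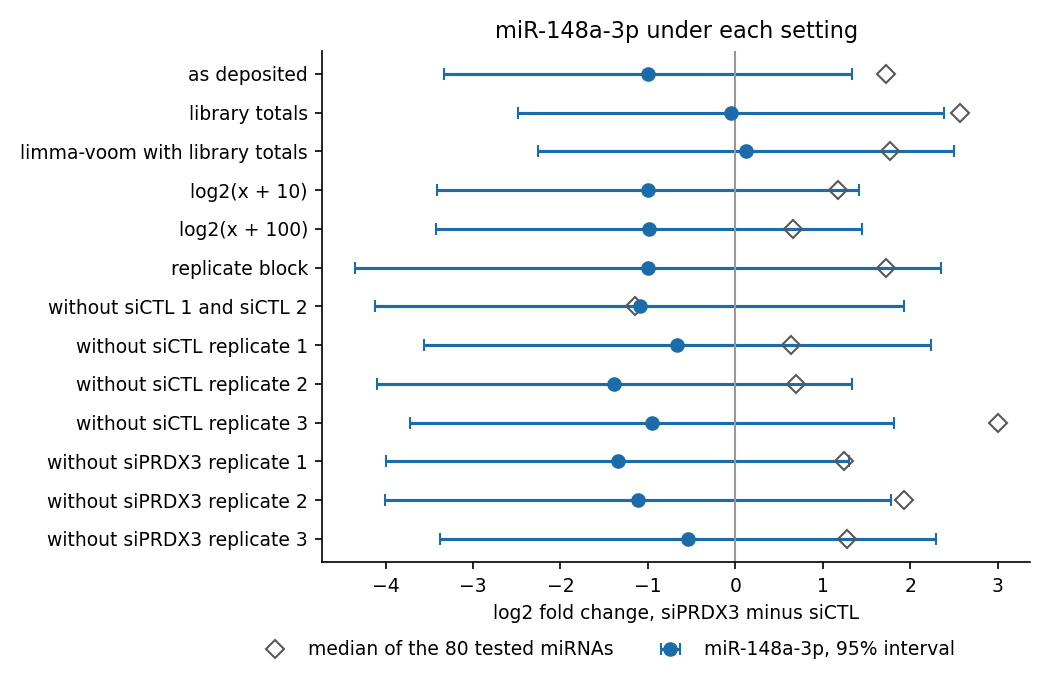
Log2 fold change of miR-148a-3p (siPRDX3 minus siCTL, points with 95% intervals from limma) under each setting, with the median of the 80 tested miRNAs as open diamonds. Every interval spans 0, and the points run from −1.38 to 0.12.

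miR-148b-3p was the minor partner, and most of its reads came from a pair of siPRDX3 libraries. The control libraries held 3, 1 and 11 reads of hsa-miR-148b-3p and the siPRDX3 libraries 228, 8 and 128. Its shares were 0.00747%, 0.00124% and 0.00882% in siCTL and 0.0987%, 0.00828% and 0.181% in siPRDX3. siPRDX3 2 lay inside the siCTL range, so the groups overlapped. On deposited log2 levels 24 of the 686 entries with reads (3.5%) had groups that did not overlap, and neither miR-148b-3p nor miR-152-3p was among them. The siPRDX3 mean of 0.0960% ± 0.0864 rests on the other 2 libraries (siCTL 0.00584% ± 0.00405, SD, n = 3 each). Too few libraries reached the minimum of 113 CPM for the test. When all 686 entries with reads were fitted, its log2 fold change was 2.63 with SE 2.86 and a 95% interval from −2.97 to 8.23 (limma, adjusted p = 0.562), higher than every siCTL library in 2 of 3 siPRDX3 libraries. In that fit 0 of 686 entries passed (0%), and 19 (2.77%) had an unadjusted p under 0.05.

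miR-152-3p was close to the limit of detection. The control libraries held 0, 0 and 0 reads of hsa-miR-152-3p and the siPRDX3 libraries 22, 1 and 0. With 3 reads as the limit, the zeros still allow a share of up to 0.00747%, 0.00371% and 0.00241% in the control libraries and of up to 0.00424% in siPRDX3 3. The share of 0.00953% in siPRDX3 1 had an interval from 0.00597 to 0.0144, above those limits except in siCTL 1, and siPRDX3 1 was the deepest library. The single read of siPRDX3 2 lay under the limits. Reads in siPRDX3 libraries alone were no rarity, being found for 214 of the 686 entries with reads (31.2%), and 200 (29.2%) had reads in siCTL libraries alone. In the fit of all entries its log2 fold change of 3.02 (SE 2.45, limma adjusted p = 0.562) depends on the constant added to values of 0 and is no bound.

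The balance between members does not depend on the scaling, because all 3 are counted in the same library. miR-148a-3p held 99.6%, 99.7% and 99.3% of family reads under the control siRNA and 92.3%, 99.02% and 77.1% under siPRDX3. Summed over each group it held 2493 of 2508 family reads in siCTL and 4325 of 4712 in siPRDX3. miR-148b-3p made up 7.05% of family reads in siPRDX3 1 (95% interval 6.19 to 7.99) and 22.9% in siPRDX3 3 (19.4 to 26.6). Elsewhere it made up 0.309% to 0.872%. For every 100 reads of miR-148a-3p there were 0.429, 0.31 and 0.748 reads of miR-148b-3p under the control siRNA and 7.64, 0.881 and 29.6 under siPRDX3. On this ratio the groups did not overlap, but the gap between siCTL 3 and siPRDX3 2 was within counting error, with 11 of 1482 family reads (0.371 to 1.32%) against 8 of 917 (0.377 to 1.71%). Of the 685 other entries with reads, 21 (3.07%) had ratios to miR-148a-3p that did not overlap between the groups. An entry without reads in a library of each group cannot separate, so this share is a low base for miR-148b-3p, which had reads in every library. On deposited log2 levels the share without overlap was 3.5% over all entries with reads but 16.2% over the 80 tested miRNAs. Summed, the family accounted for 1.11% ± 0.68 of a control library and 1.05% ± 0.32 of an siPRDX3 library (mean ± SD, n = 3 each).

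**Figure D3:**
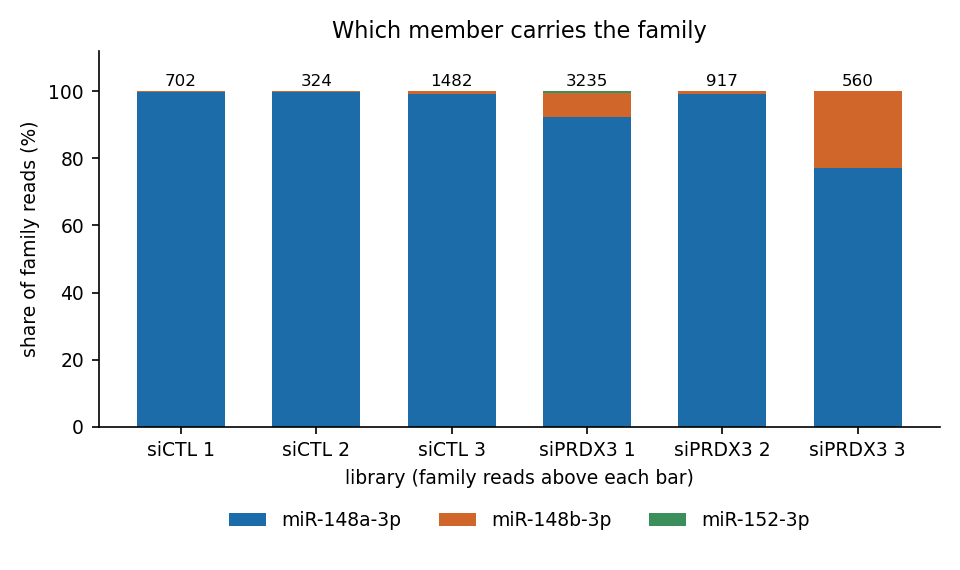
Share of family reads (percent) held by each member in the 6 libraries, with the number of family reads above each bar. miR-148a-3p fills at least 99.02% of 4 bars, and miR-148b-3p reaches 7.05% in siPRDX3 1 and 22.9% in siPRDX3 3.

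miR-148a-3p and miR-148b-3p differ by 2 neighbouring bases, and the assignment of reads that could match both is not stated. Its part in the miR-148b-3p values was not tested. Markers of other sources also differed between libraries. Of the leukocyte miRNAs, miR-146a-5p had 287 reads in siPRDX3 3 and 0 in the other 5 libraries. miR-155-5p had 0, 1 and 21 reads in the control libraries and 0 in each siPRDX3 library. miR-142-5p had 11 reads in siPRDX3 1 and 0 in the other 5 libraries. These markers did not move one way between the groups. The 6 leukocyte and platelet miRNAs, of which 3 had reads and miR-142-3p, miR-223-3p and miR-150-5p were at 0 throughout, took 0 to 0.0168% in siCTL and 0 to 0.406% in siPRDX3. The part of these sources in the miR-148b-3p values was not tested.

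The opposite arms of the 3 hairpins were nearly absent. miR-148a-5p and miR-148b-5p had 0 of 644119 reads, beside 6818 and 379 for their 3p arms. miR-152-5p had 1 read in siPRDX3 2 and 1 in siPRDX3 3, and 0 in the other libraries.

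Related miRNAs were sparser still. Most listed members of the miR-130 and miR-301 group carry the same 7 letters one base earlier, as in the first 7 bases of miR-130b-3p and miR-301a-3p, in capitals here to show the shift.
miR-130b-3p: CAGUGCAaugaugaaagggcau
miR-301a-3p: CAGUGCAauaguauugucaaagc
All 7 entries of this list, miR-130a-3p, miR-130b-3p, miR-301a-3p, miR-301b-3p, miR-454-3p, miR-3666 and miR-4295, had 0 reads in every library. The sequence table held the 7 letters at bases 1 to 7 for 5 of the entries, miR-130b-3p, miR-301a-3p, miR-301b-3p, miR-3666 and miR-4295. For miR-130a-3p no mature sequence was available, so it could not be checked. miR-454-3p did not hold them there.

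Of 8 other miRNAs described as repressing DNA methyltransferases, 5 had reads, 0 had enough to be tested and the miR-29 members, regulators of DNMT3A and DNMT3B, were at 0 throughout. miR-185-5p, described as targeting DNMT1, was read 2, 1 and 10 times in the control libraries and 290, 0 and 11 times in the siPRDX3 libraries. miR-126-3p, an endothelial miRNA, had 1, 0 and 5 reads against 5, 0 and 154. miR-101-3p had 2, 1 and 2 reads against 8, 9 and 14. The list held 544 reads in all, against 7220 for the miR-148 and miR-152 family. Its share ran from 0.00247% to 0.0152% in siCTL and from 0.00931% to 0.26% in siPRDX3, where siPRDX3 1 was high through miR-185-5p and siPRDX3 3 through miR-126-3p.

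The tested miRNAs whose deposited log2 levels over the 6 libraries were most like those of miR-148a-3p were miR-1290 (Pearson's r = 0.88), let-7b-5p (0.86), miR-4443 (0.86), miR-6894-5p (0.81) and let-7a-5p (0.81). The median r of the 79 other tested miRNAs was −0.19. On library totals the same 5 stood at 0.74, 0.79, 0.74, 0.47 and 0.76, with a median of 0.10 over the 79, and 3 of them were again among the 5 highest. These are descriptions over 6 points that share their library's depth and scaling. miR-1290, an entry resembling U2 small nuclear RNA, had deposited log2 levels of 15.74, 14.01 and 13.52 under the control siRNA and 13.36, 13.28 and 11.73 under siPRDX3. In siCTL 3 its level was close to that of miR-148a-3p, and in every other library it was higher, most so in siCTL 1. On this scale both miRNAs were lowest in siPRDX3 3. On library totals miR-148a-3p was lowest in siCTL 2.

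**Figure D4:**
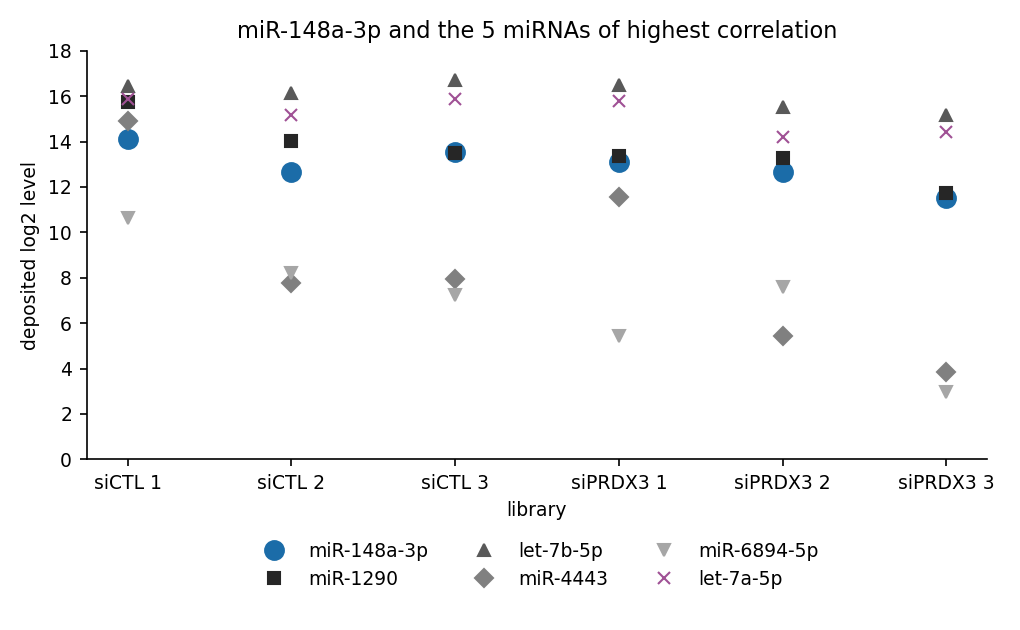
Deposited log2 levels of miR-148a-3p and of the 5 tested miRNAs with the highest Pearson's r to it, in each of the 6 libraries. miR-1290, let-7a-5p and let-7b-5p stay within 11.73 to 16.72, while miR-4443 and miR-6894-5p stand at 3.85 and 2.95 in siPRDX3 3.

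miR-148a-3p is also found in liver and serum, so markers of such sources are given beside it. The hepatocyte miRNA miR-122-5p was read 1874, 48 and 6670 times in the control libraries and 5636, 9314 and 2371 times in the siPRDX3 libraries. Fewest reads of miR-122-5p were thus in siCTL 2 and most in siPRDX3 2. As a share of reads, the liver entries miR-122-5p and miR-122-3p took 0.0593% to 5.35% in siCTL and 2.44% to 9.6% in siPRDX3. The miR-148a-3p shares of siCTL 2 and siPRDX3 2 were 0.399% and 0.939% of all reads, and 1.73% and 1.80% without the reads of miR-4451. These are the extremes of miR-122-5p alone. The highest miR-148a-3p share, 1.74% of all reads and 3.44% without miR-4451, was in siCTL 1, with 1874 miR-122-5p reads of 40144. The 5 erythroid miRNAs, of which miR-144-3p was at 0 throughout, took 4.15% to 5.58% of reads in siCTL and 1.09% to 3.54% in siPRDX3. These totals include miR-4451, with 20432 of 124735 reads in siCTL 3 and 46121 of 96665 in siPRDX3 2. Without its reads the erythroid share of siPRDX3 2 lay above that of siCTL 3, so the groups overlapped. On deposited log2 levels 13 of the 80 tested miRNAs had groups that did not overlap, the 3 tested erythroid miRNAs among them. Of these 3, 0 passed the limma test. The part of these sources in the miR-148a-3p values was not tested.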

How the data were processed

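Exosomal small RNA of HCT116 cells was sequenced in 3 siCTL and 3 siPRDX3 libraries, grouped by their titles. The series' design text also names another siRNA and endothelial cells, against the titles and cell line. The authors deposited 1 table per library with a log2 value for each of 2588 miRNAs. Bowtie2 and bedtools 2.25.0 are named with no step, per the submitters' processing notes. No source used here gives the build, annotation, scaling or treatment of multiply mapped reads. Each library's x values, from log2(x + 1), are whole multiples of a single step, taken as 1 read: 100% of values up to 100 reads were whole within 0.1 read. With 3 decimals, larger read numbers are approximate. Deposited x summed to 474714 to 1616283, so it is not plain CPM.

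Filtered miRNAs were tested with limma 3.58.1 in R 4.3.3 on the deposited values (mean-variance trend, no covariates, Benjamini-Hochberg adjustment). The fit was tested on simulated data. It recovered changed miRNAs at low replicate spread, at the real depth and deeper, when the true library exposure was known. Recovery was counted among changed miRNAs that passed the filter, and the true exposure of the real libraries is not known. Scaling by library sums instead added many false calls, so the test was rewritten around known exposure after its first version failed. At the real depth with wide replicate spread the fit recovered few of the changed miRNAs, so a count of 0 does not show that miRNAs did not differ. Named miRNAs were the members, their opposite arms, up to 3 members of each list by reads, and the 5 most like miR-148a-3p. Marker miRNAs and miR-1260b were named after their values were seen. Members and lists were chosen with earlier results of these data known. Alternatives covered scaling, filter, added constant, limma-voom, a replicate block, leaving out libraries and shares without miR-4451, the entry with most reads. Leaving out siCTL 1 and siCTL 2 together, and refits of the rarer members, were added after seeing the data.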

Additional observations from a re-analysis of the deposited data

How the results depend on the processing

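No alternative brought miR-148a-3p past an adjusted p of 0.05 (limma or limma-voom, adjusted p 0.554 to 0.972 over 13 alternatives). Its fold change was below 0 in 12 of them and 0.12 under limma-voom. Leaving out 1 library at a time gave −1.38 to −0.54. The difference between group mean shares was −0.159 percentage points and ran from −0.513 to 0.159 when 1 library was left out, with 0.159 without siCTL 1 and 0.0094 without siPRDX3 3. With the reads of miR-4451 left out of the library totals, that difference was larger, at −0.766 percentage points. Over all 80 tested miRNAs 0 passed, against 1 under limma-voom (miR-1260b, log2 fold change 7.76, adjusted p = 0.0465; 0.00267 to 0.797 over all settings). Leaving out 1 library gave 0 to 20. The 20 passed without siCTL 3 and included 0 family members (19 higher, 1 lower in siPRDX3). Fold changes lay above 0 for 51 of 80 miRNAs on the deposited scale for 59 on library totals and for 17 without siCTL 1 and siCTL 2, where most lay below 0. The fitted difference of miR-148b-3p ran from 1.92 to 3.87 and that of miR-152-3p from 1.51 to 4.53 when 1 library was left out, and the difference in share of miR-152-3p fell to 0.00052 percentage points without siPRDX3 1, which held 22 of its 23 reads. At the depth of the smallest library at least 1 read of miR-152-3p would be expected in 1 library in place of 2, and of miR-148b-3p in 5 in place of 6. The labels do not say that equal numbers pair the libraries, so they were not taken as pairs. Deviations of same-numbered libraries correlated at −0.238, 0.177 and 0.14, and those of differently numbered libraries at −0.36 to 0.329. With 3 libraries per group these values cannot decide on pairing. With the replicate number as a block the fold change of miR-148a-3p was −0.999 with SE 1.57 (limma adjusted p = 0.759) and 0 miRNAs passed. Depth limits what can be said of miR-152-3p, and both depth and the spread between libraries limit miR-148b-3p. The cause of these changes was not tested.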
